A study of Mus musculus with 10 samples.

Results

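The earliest sampling of mouse testis after trichostatin A (TSA) was compared with its carrier control. The comparison holds 4 of the 10 arrays of the series, read from 2 of its 5 RNA pools, and was taken by label: the arrays of the TSA group killed at 2.5 h against those of the carrier group. Male BALB/c mice (written Balb-c in the labels), 9 weeks old, had been split into 5 groups of 3. The TSA mice were given 60 µg of the compound each, as a single injection under the skin, and the control mice received only the dimethylsulfoxide and phosphate-buffered saline carrier. The remaining TSA groups were killed at 5, 7.5 and 10 h and serve here only to place the levels seen at 2.5 h. No genetic modification is named for any group.

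Histone deacetylases remove acetyl groups from histone tails and from many other proteins, and TSA blocks the zinc-dependent enzymes of this family. The enzymes act inside co-repressor complexes, so inhibitors change the transcription of many genes, with p21 (Cdkn1a) the textbook example of an induced one. The testis is rich in germ cells whose chromatin is rebuilt during meiosis and spermatid maturation, a process in which histone acetylation precedes the replacement of histones by protamines.

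The RNA of the 3 mice of a group had been pooled before labelling and each pool was read on 2 arrays. Each group is therefore 1 pool (n = 1), the duplicate arrays show only technical error, and no p-value is given for 2.5 h against control. The control was killed at 10 h, so the effect of TSA and of the hour of killing cannot be told apart in the comparison of the 2.5 h pool with the control. Over the probes tested, r was 0.997 between the 2 control arrays and 0.998 between the 2.5 h arrays, and a single array had a standard deviation of 0.122 and 0.110 on the log2 scale. Values are normalised intensities with a median of 1.00 over all probes of an array. Of 9897 probes with values, 7422 remained after the dimmest 25% were left out, and these stood for 6573 genes. Left out were probes with a mean intensity under 0.207 over all 10 arrays of the series. A probe dim in the control could thus pass through its level in the TSA pools. A probe was counted as higher or lower where its log2 fold, 2.5 h over control, was at least 1 in size (2-fold) and both 2.5 h arrays lay beyond both control arrays. The error given after a fold is the standard error from the duplicate arrays. For a single gene a fold is printed only where both pools were above 0.207, and intensities alone are given for the others; medians over groups take in the dim ones. Intensities of different probes are not compared with each other.

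By this rule 50 probes were higher at 2.5 h (0.674% of those tested) and 18 were lower (0.243%). At the level of genes, with the brightest probe of each, 48 were higher (0.73%) and 13 were lower (0.198%). Most were dim. With the tested probes split into 3 equal parts by brightness, 37 of the 50 higher probes lay in the dimmest part and 3 in the brightest, and in 24 the control pool was under 0.207. The spread of all folds narrowed in the same order, with a standard deviation of 0.439 in the dimmest part, 0.333 in the middle and 0.270 in the brightest, against median technical errors of 0.0956, 0.0664 and 0.0575. Folds were mostly small. The median of the higher probes was 1.23 and that of the lower ones -1.11, and 3 on each side exceeded 4-fold. Each of the latter had a pool under 0.207, so the size of its fold is uncertain. Over the 26 higher and 8 lower probes with both pools above 0.207 the medians were 1.18 and -1.10. The median over all tested probes was -0.02. With 0.5 added to each intensity before the log, which shrinks the folds of dim probes, 9 of the higher and 4 of the lower probes still met the rule. Of those with both pools above 0.207 these were Insl5, Ghrl, Zic2, Zmynd8, Col6a3, Col16a1, Nop10, Prorsd1, Cuzd1 and 1700030J22Rik, and the others were Urgcp, Cd52 and probe 2712.

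**Figure D1:**
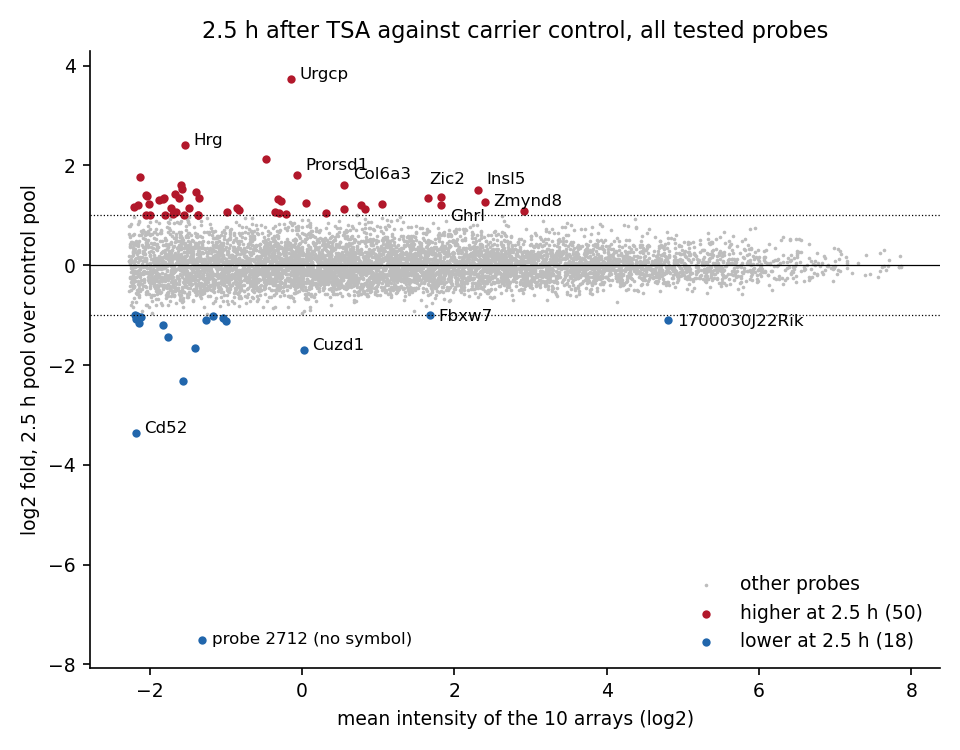
Each point is a tested probe, with its mean intensity over the 10 arrays (log2) on the horizontal axis and its log2 fold, 2.5 h pool over control pool, on the vertical axis. Dotted lines mark 2-fold, red and blue points are the 50 higher and 18 lower probes, and most of these lie on the dim left side, where a fold against a pool under 0.207 is uncertain in size.

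Hormone and ligand genes gave some of the best measured differences. Insl5 encodes an insulin-like peptide hormone. Its probe read 2.00 and 2.00 on the control arrays and 6.10 and 5.34 on the 2.5 h arrays, a log2 fold of 1.51 ± 0.10. Ghrl encodes ghrelin, the peptide that drives growth hormone release and appetite. It read 1.63 and 1.82 in the control and 3.74 and 4.25 at 2.5 h, a log2 fold of 1.21 ± 0.12. In both genes the pools were separated by far more than their duplicate arrays. Lif, the cytokine leukaemia inhibitory factor, read 0.586 and 0.333 against 1.25 and 0.917, so that its fold of 1.28 ± 0.47 was loosely measured, and without the second control array it was 0.87, under the limit. Gdf9, a growth factor of the TGF-beta family best known from oocytes, read 0.442 and 0.502 against 0.859 and 1.07, a fold of 1.02 ± 0.18. It too was under the limit without the first control array (0.93) or the second 2.5 h array (0.87). Among receptors, Adcyap1r1, which binds the neuropeptide PACAP, read 0.564 and 0.497 against 1.27 and 1.26, a fold of 1.25 ± 0.09.

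Several transcription and chromatin regulators were also higher. Zic2, a zinc finger factor of neural development, read 1.82 and 1.75 in the control and 4.62 and 4.59 at 2.5 h, a log2 fold of 1.37 ± 0.03. Duplicate arrays nearly coincided in both pools. Zmynd8, whose protein reads modified histone tails, read 2.82 and 2.23 against 6.10 and 6.02, a fold of 1.27 ± 0.17. It was the only one of 18 acetyltransferase and bromodomain genes past the rule, and of these 12 were below 0, with a median of -0.11 and the acetyltransferase gene Kat5 lowest at -0.75 ± 0.05. Ifrd1, a transcriptional co-regulator, read 1.09 and 1.11 against 2.97 and 2.26, a fold of 1.23 ± 0.20. Hoxd1, a gene of the Hox clusters that pattern the body axis, read 0.425 and 0.427 against 1.22 and 0.928, a fold of 1.32 ± 0.20. Its 2.5 h arrays differed from each other, but both were at more than double the control level. Vax2, a homeobox factor of the ventral eye, read 0.832 and 0.929 against 2.20 and 1.68, a fold of 1.13 ± 0.21 that became 0.94 without the first 2.5 h array. Nkx2-1, a homeobox factor of thyroid and lung, stood at the edge of the rule. It read 0.330 and 0.200 against 0.596 and 0.444, a fold of 1.00 ± 0.42, which was 0.64 without the second control array and 0.79 without the first 2.5 h array.

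Extracellular matrix genes were also among the higher ones. Col6a3, which encodes a chain of collagen VI, read 0.715 and 0.780 in the control and 2.14 and 2.43 at 2.5 h, a log2 fold of 1.61 ± 0.11. Col16a1, which encodes a chain of a fibril-associated collagen, read 1.46 and 1.62 against 3.72 and 4.15, a fold of 1.36 ± 0.11. Lamb2, a laminin chain of basement membranes, read 0.763 and 0.688 against 1.59 and 1.40, a fold of 1.04 ± 0.12. The collagen folds were well over the limit, while that of Lamb2 was 0.97 without the second control array and 0.95 without the first 2.5 h array.

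Further higher genes had varied roles. Pmaip1, which encodes the pro-apoptotic BH3-only protein Noxa, read 1.03 and 1.09 in the control and 2.50 and 2.41 at 2.5 h, a log2 fold of 1.21 ± 0.05. Peli1, a ubiquitin ligase of Toll-like receptor signalling, read 1.15 and 1.06 against 2.72 and 2.17, a fold of 1.13 ± 0.17. Dok4, a docking protein of receptor tyrosine kinases, read 0.202 and 0.304 against 0.643 and 0.610, a fold of 1.34 ± 0.30. Gch1, the first enzyme of tetrahydrobiopterin synthesis, read 0.305 and 0.347 against 0.707 and 0.696, and its fold of 1.11 ± 0.09 was chosen for mention after its values were seen. The same holds for Ro60, which binds misfolded small RNAs and read 0.310 and 0.313 against 0.607 and 0.649 (1.01 ± 0.05), and for Nop10, a protein of the small nucleolar particles that modify ribosomal RNA, which read 5.14 and 3.69 against 10.2 and 8.47 (1.09 ± 0.27). Prorsd1, whose protein resembles a domain of prolyl-tRNA synthetase, had the highest fold of those with both pools above 0.207. It read 0.427 and 0.319 against 1.33 and 1.27, a fold of 1.82 ± 0.22.

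For 24 higher probes the control was too dim for a fold. Urgcp, a gene linked to cell growth, read 0.116 and 0.0889 in the control and 1.39 and 1.33 at 2.5 h, so that only its 2.5 h level was well above the limit. Barx1, a homeobox factor of stomach and jaw development, read 0.177 and 0.129 against 0.420 and 0.454. Fbxl8, which encodes an F-box protein of ubiquitin ligases, read 0.123 and 0.118 against 0.404 and 0.414. Icosl, the ligand of a T cell co-stimulator, read 0.156 and 0.161 against 0.466 and 0.410. In each of these the duplicates lay close together at 2.5 h. Tnfrsf12a, the receptor of the cytokine TWEAK, read 0.237 and 0.106 against 0.405 and 0.447, so its control arrays differed by more than 2-fold.

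Lower levels were fewer among the probes kept by the filter, whose mean took in all TSA pools. With no filter on dim probes the counts were closer, 128 higher and 91 lower. Cuzd1, which encodes a secretory granule membrane protein, had the lowest fold among named genes with both pools above the limit. It read 2.25 and 2.31 in the control and 0.679 and 0.720 at 2.5 h, a log2 fold of -1.70 ± 0.05. Cd52, which encodes a surface glycoprotein of lymphocytes and of the epididymis, read 1.18 and 1.22 against 0.133 and 0.102, below the limit at 2.5 h. Probe 2712, with no gene symbol in the tables used here, showed the widest gap of all, from 12.4 and 13.1 in the control to 0.0803 and 0.0612 at 2.5 h; it was chosen for mention after its values were seen. Txk, a kinase of T cell receptor signalling, read 0.806 and 0.809 against 0.406 and 0.344, a fold of -1.11 ± 0.12, or -0.99 without the second 2.5 h array. Mllt3, a reader of acylated histones in transcription elongation complexes, read 0.634 and 0.594 against 0.301 and 0.271, a fold of -1.10 ± 0.09. Pou6f1, a POU homeodomain factor, read 0.991 and 0.899 against 0.444 and 0.457, a fold of -1.07 ± 0.07, which became -0.997 without the first control array. Setmar, a SET domain gene, read 0.525 and 0.584 against 0.281 and 0.266, a fold of -1.02 ± 0.09. Its call was lost without the second control array (-0.94) or the second 2.5 h array (-0.98).

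A pair of the lower calls rested on 1 array. Fbxw7, the substrate receptor of a ubiquitin ligase that degrades cyclin E and MYC, read 4.40 and 4.58 in the control but 1.24 and 4.05 at 2.5 h, a fold of -1.002 ± 0.85. Without the first 2.5 h array the fold was -0.15, and without the second control array it was -0.97. The testis transcript 1700030J22Rik read 37.4 and 34.2 against 28.1 and 10.1, a fold of -1.09 ± 0.74 that shrank to -0.35 without the second 2.5 h array. Rab10os, an antisense transcript, was lower on its dim probe only (0.512 and 0.346 against 0.160 and 0.210), and a brighter probe of the same gene had a fold of -0.37 ± 0.01.

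**Figure D2:**
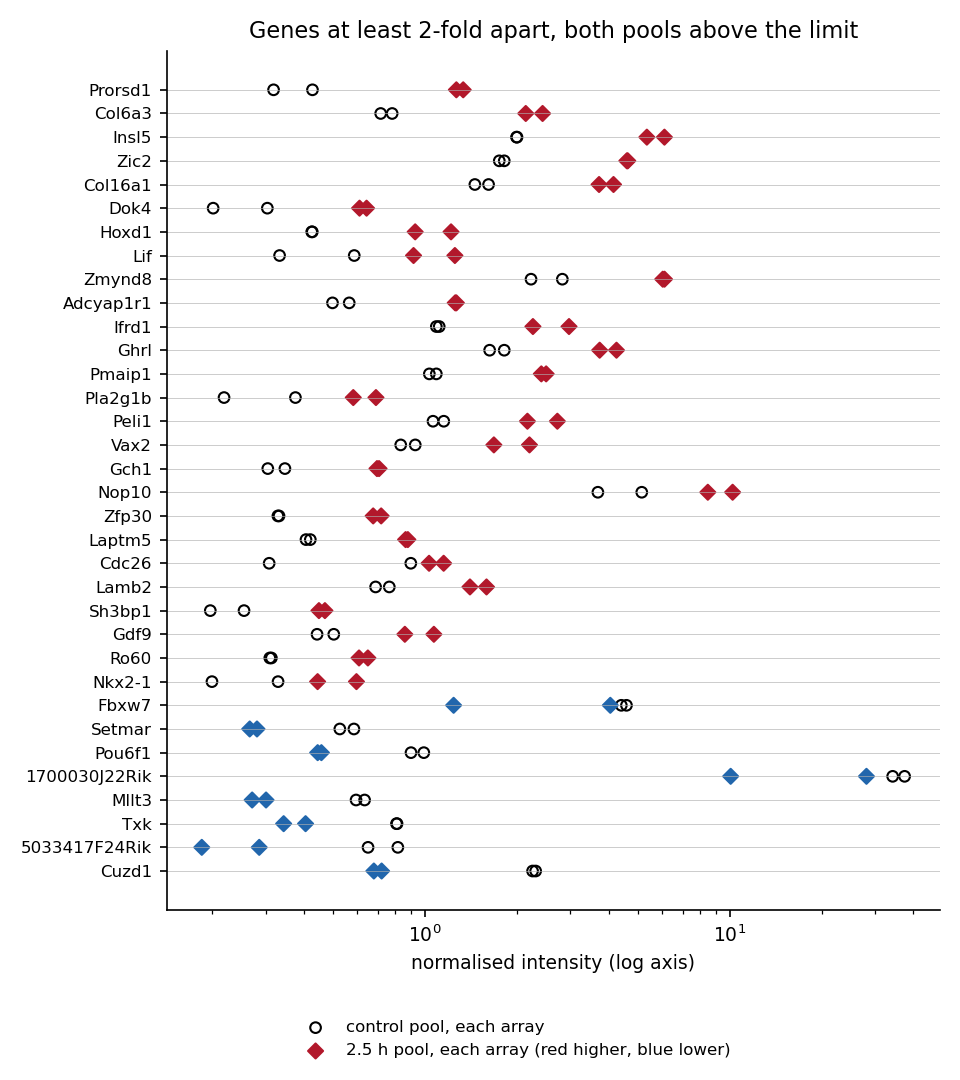
Normalised intensity (log axis) on each array for the 26 higher and 8 lower genes with both pools above 0.207; open circles are control arrays and filled diamonds 2.5 h arrays, red for higher and blue for lower. Diamonds and circles stand apart in each row because the rule asks for it, and the wide pairs of Fbxw7, 1700030J22Rik and Cdc26 show where 1 array of a pool differed from its duplicate.

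The promoters of these genes were examined because TSA-responsive promoters, that of Cdkn1a among them, are known for GC boxes, the sites of Sp1-family factors. The sequence from 250 bases before to 50 bases after the start was taken from the RefSeq promoter table (build GRCm38.p6) and searched for GGGCGG on both strands, the other strand reading CCGCCC. A match was present in 20 of the 38 higher genes with an entry (52.6%), in 6 of the 11 lower ones (54.5%), in 60.6% of the 5320 tested genes with an entry, and in 35.9% of the 27025 genes of the table. The median GC content was 59.7% in the higher, 62.7% in the lower and 60.0% in the tested genes, so the promoters of the higher genes held the motif no more often than those of the genes tested. The 250 bases before the start are shown for 3 higher genes that have a single start in the table, 2 with matches (Ifrd1 and Peli1) and 1 without (Col6a3), with matches in capitals.
Ifrd1, chr12:40223190-40223439, minus strand: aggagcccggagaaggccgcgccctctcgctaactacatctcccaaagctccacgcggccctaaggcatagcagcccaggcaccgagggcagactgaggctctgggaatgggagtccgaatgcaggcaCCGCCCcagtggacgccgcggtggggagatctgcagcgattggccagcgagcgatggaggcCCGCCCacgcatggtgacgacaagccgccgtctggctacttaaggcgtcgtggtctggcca
Peli1, chr11:21091074-21091323, plus strand: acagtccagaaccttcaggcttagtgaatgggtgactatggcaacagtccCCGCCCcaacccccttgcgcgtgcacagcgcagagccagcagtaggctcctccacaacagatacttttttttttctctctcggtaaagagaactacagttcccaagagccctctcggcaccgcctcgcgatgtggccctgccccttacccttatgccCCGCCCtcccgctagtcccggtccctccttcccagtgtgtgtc
Col6a3, chr1:90843972-90844221, minus strand: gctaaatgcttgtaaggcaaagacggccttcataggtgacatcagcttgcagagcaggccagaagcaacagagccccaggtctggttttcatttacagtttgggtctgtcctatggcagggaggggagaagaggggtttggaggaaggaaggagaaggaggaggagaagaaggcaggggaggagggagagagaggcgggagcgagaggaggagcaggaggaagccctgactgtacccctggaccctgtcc
In Ifrd1 the matches began 122 and 61 bases before the start, and in Peli1 200 and 43 bases before it. GC content over the whole 300-base window was 65.7%, 61.7% and 56.3% in the order shown.

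Gene groups were then described by the number of members past the rule and by their median log2 fold, beside the 48 higher, 13 lower and median of -0.01 of the 6573 genes. Of 13 histone deacetylase and sirtuin genes measured, 10 passed the filter, none met the rule, and the median was -0.20. The 5 zinc-dependent enzymes among them ran from -0.25 (Hdac3) to 0.21 (Hdac5), with a median of 0.08. The 5 sirtuins, which use NAD and are not blocked by TSA, ran from -0.50 (Sirt4) to 0.03 (Sirt2), with a median of -0.32. Hdac1, a class I enzyme of the NuRD and Sin3 complexes, read 3.89 and 3.64 in the control and 4.32 and 3.67 at 2.5 h (0.08 ± 0.13). Hdac2 read 1.90 and 1.98 against 1.79 and 1.72 (-0.14 ± 0.04), and Hdac3, of the NCoR complex, 2.30 and 2.22 against 2.03 and 1.78 (-0.25 ± 0.10). Hdac6, the tubulin deacetylase, read 9.28 and 10.9 against 11.2 and 10.5 (0.11 ± 0.12). Hdac5 read 7.44 and 7.28 against 8.85 and 8.24 (0.21 ± 0.05), and Sirt1 was at -0.32 ± 0.01. For Hdac1 and Hdac6 the control and 2.5 h arrays overlapped. The co-repressor subunits (13 tested) had none past the rule, 6 above 0 and 7 below, and a median of -0.01. The histone genes (11 tested) had none past the rule, 6 above 0 and 5 below, and a median of 0.09.

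Among 20 genes known from work on deacetylase inhibitors, none met the 2-fold rule, while 16 had a fold above 0 and the median was 0.25. Cdkn1a, the cell cycle inhibitor p21, read 2.92 and 2.79 in the control and 3.34 and 3.62 at 2.5 h, a fold of 0.28 ± 0.07. Gsn, the actin-severing protein gelsolin, read 12.5 and 12.6 against 16.6 and 16.3 (0.38 ± 0.01). Klf4, a zinc finger factor of differentiation, read 27.9 and 28.1 against 37.1 and 35.9 (0.38 ± 0.02), and Cdkn1c, another cell cycle inhibitor, 9.42 and 8.76 against 13.1 and 11.2 (0.42 ± 0.12). In these genes both 2.5 h arrays lay above both control arrays, with folds under 1.5. Gadd45a, a stress gene, went the other way at -0.23 ± 0.18.

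Immediate early genes, which respond within minutes to growth and stress signals, had no member past the rule among 17 tested and a median of 0.11. Jun, a subunit of the AP-1 factor, read 0.936 and 0.979 in the control and 1.54 and 1.34 at 2.5 h (0.58 ± 0.10), and Jund read 26.5 and 25.9 against 32.1 and 33.0 (0.31 ± 0.03). Fos (0.0217 and 0.0418 against 0.0172 and 0.0236) and Egr1 (0.126 and 0.0805 against 0.0711 and 0.113) were below the filter in all 4 arrays, so they give no fold. Because the hour of killing differed between the pools, circadian clock genes were read too. None of 10 met the rule and their median was 0.03, with Dbp, a clock output factor, at 2.35 and 2.39 against 1.71 and 1.63 (-0.51 ± 0.03) and Per1, a clock repressor, at 0.283 and 0.309 against 0.369 and 0.378 (0.34 ± 0.07). The 11 glucocorticoid response genes had none past the rule and a median of -0.23. The part of the killing hour in other genes was not tested.

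Of 20 genes of p53 response and apoptosis 1 met the rule, Pmaip1, and the median was 0.08. Trp53inp1, a p53 partner in stress, read 2.61 and 2.73 against 4.27 and 4.28 (0.68 ± 0.03). Mdm2, the ligase that degrades p53, read 5.67 and 6.03 against 5.69 and 5.91 (-0.01 ± 0.05), and Diablo, an inhibitor of apoptosis inhibitors, 25.8 and 25.2 against 19.9 and 21.0 (-0.32 ± 0.04). The members thus lay on both sides of 0, with 13 above it and 7 below.

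Several large groups lay mostly above 0 among the members that passed the filter. Of those measured, 52 of 97 homeobox, 54 of 86 matrix, 16 of 43 peptide hormone and 70 of 132 ion channel genes were tested. As the filter took the mean of all pools, genes dim in the control could pass through the TSA pools. Barx1 and Isl1, for example, were under 0.207 in the control, so the share above 0 depends in part on the filter. Homeobox genes, taken by symbol, had 5 of 52 tested members higher (Barx1, Hoxd1, Isl1, Nkx2-1 and Vax2) and 1 lower (Pou6f1), a median of 0.17, and 14 members at least 1.5-fold higher, against 5.45% of all genes and 8.26% of the genes in the dimmest of 3 equal parts. The median intensity of these genes was 0.943, against 2.10 for all genes tested. Their brighter members included Hoxb3 at 7.85 and 10.4 against 15.9 and 16.2 (0.83 ± 0.21), Pax3, a factor of neural crest and muscle, at 2.93 and 3.38 against 5.60 and 5.44 (0.81 ± 0.10), and Barx2 at 6.22 and 6.26 against 10.2 and 10.1 (0.70 ± 0.01). Collagen and matrix genes had 3 of 54 higher, none lower, 41 above 0 and a median of 0.21. Timp2, an inhibitor of matrix metalloproteinases, read 6.98 and 7.18 against 10.9 and 11.1 (0.64 ± 0.02). The 16 peptide hormone genes had 2 higher, Insl5 and Ghrl, and 15 above 0, with a median of 0.24 and Inha the exception at -0.27 ± 0.18. Among 70 ion channel genes none met the rule and the median was 0.12, but 15 were at least 1.5-fold higher, such as the sodium channel Scn11a at 12.3 and 13.2 against 24.0 and 20.9 (0.81 ± 0.11) and the potassium channel Kcnk2 at 3.57 and 3.31 against 5.20 and 5.95 (0.70 ± 0.11).

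Bright housekeeping groups also lay mostly above 0. Cytosolic ribosomal protein genes had none of 55 past the rule, 41 above 0 and a median of 0.23, with Rps7 at 28.3 and 27.5 against 43.8 and 44.2 (0.66 ± 0.02). Respiratory chain genes had 1 of 53 past the rule, Cox6a2, a heart and muscle subunit of cytochrome oxidase that was dim (0.122 and 0.110 against 0.259 and 0.281), with 37 above 0 and a median of 0.23. Cox5b, of the same enzyme, read 44.0 and 43.3 against 78.3 and 68.1 (0.74 ± 0.10). Translation factors lay on both sides, with none of 40 past the rule and a median of -0.05: Eif4e, the cap-binding protein, was at 0.80 ± 0.10 and the helicase Eif4a2 at -0.70 ± 0.11.

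Mitosis, DNA repair, meiotic and spermatid genes lay more often below 0 than above it, without a member past the rule. Of all 6573 genes, 3397 were below 0. Mitosis and spindle checkpoint genes (24 tested) had 17 below 0 and a median of -0.24. Aurka, a spindle kinase, read 7.21 and 7.39 in the control and 6.04 and 5.33 at 2.5 h (-0.36 ± 0.09), while the securin gene Pttg1 read 4.15 and 4.28 against 5.00 and 5.67 (0.34 ± 0.09). DNA damage and repair genes (25) had 18 below 0 and a median of -0.14, with Nbn, of the MRN break-sensing complex, at 2.63 and 2.59 against 1.89 and 1.72 (-0.53 ± 0.07). Meiotic genes (20) had 15 below 0 and a median of -0.11. Pgk2, the germ cell phosphoglycerate kinase, read 90.2 and 92.2 against 62.9 and 66.8 (-0.49 ± 0.05), whereas Sycp3, of the synaptonemal complex, read 31.9 and 31.5 against 31.3 and 31.5 (-0.01 ± 0.01). Spermatid and sperm genes (30) had 20 below 0 and a median of -0.10, running from Hspa1l, a testis HSP70, at 4.53 and 4.08 against 2.62 and 2.70 (-0.69 ± 0.08), to Prm3 at 27.9 and 27.9 against 39.7 and 39.4 (0.50 ± 0.01). The G1 and S phase genes (26) were split evenly, 13 above 0 and 13 below, with a median of 0.01, and the spermatogonial genes (11) had 5 above and 6 below, with a median of -0.04. Neither had a member past the rule. Zinc finger (Zfp) genes had 40 of 64 below 0 and a median of -0.14, with 1 member higher, Zfp30, at 0.329 and 0.332 against 0.676 and 0.718 (1.08 ± 0.04).

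**Figure D3:**
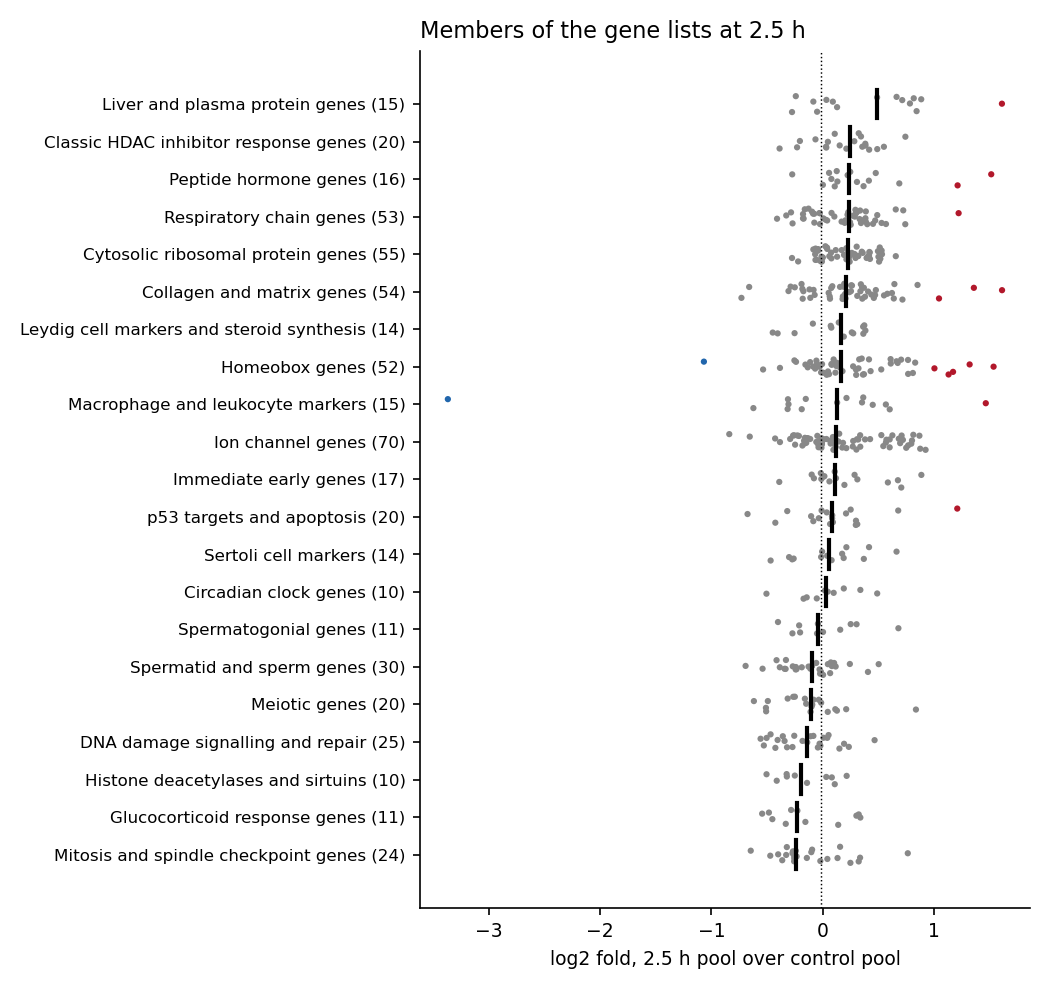
Log2 fold, 2.5 h over control, of each tested member of 21 gene groups, with the number of members in brackets, a black bar at each median and red or blue points for members past the rule. The dotted line is the median of all genes (-0.01). Group medians run from -0.24 for mitosis genes to 0.49 for liver and plasma protein genes, all within 2-fold. Members of the liver group such as Ttr were dim in both pools and passed the filter by their 5 h level.

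Both pools had the markers of testis, and the summed intensity of no marker set differed 2-fold. Such a sum mostly follows its brightest probes. The 10 germ cell markers measured were above the limit, and their intensities summed to 689 and 695 on the control arrays and 708 and 684 at 2.5 h. Of these markers Tnp1 (0.24 ± 0.13), Dazl (0.16 ± 0.05) and the brightest, Ldhc (0.11 ± 0.03), were above 0. Below it were Pgk2 (-0.49 ± 0.05), Acr (-0.24 ± 0.06), Ddx4 (-0.20 ± 0.12), Tex101 (-0.15 ± 0.01), Crem (-0.13 ± 0.12), Odf1 (-0.09 ± 0.04) and Sycp3 (-0.01 ± 0.01). Sertoli cell markers (9 measured, 6 above the limit) summed to 53.2 and 47.5 against 53.4 and 55.8. Most of that sum was Clu, at 32.3 in the control pool and 37.4 at 2.5 h (0.21 ± 0.16). Of the others above the limit, Gata4 (0.19 ± 0.03) and Cldn11 (0.08 ± 0.16) were also above 0. Wt1 (-0.30 ± 0.09), Inha (-0.27 ± 0.18) and Trf (-0.26 ± 0.03) were below it. Among the dim ones Sox9 was lower on both 2.5 h arrays, and the arrays of Amh and Inhbb overlapped. Peritubular myoid markers (5) summed to 20.9 and 19.8 against 21.0 and 20.6. Leydig cell markers (5) summed to 111 and 118 against 145 and 129, so both 2.5 h arrays were higher. Most of that sum was Cyp17a1, the androgen-forming P450, at 83.2 and 88.8 against 110.5 and 97.7 (0.27 ± 0.10), beside Cyp11a1, which cleaves the cholesterol side chain, at 3.39 and 3.94 against 4.70 and 4.83 (0.38 ± 0.11). Star, the cholesterol carrier, was at -0.09 ± 0.07. In a pooled tissue, fewer cells of a type and less RNA per cell cannot be told apart.

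Markers of other cells and tissues were read too. Macrophage and leukocyte markers (5 measured, 2 above the limit) summed to 2.78 and 3.06 against 2.34 and 2.20, with the macrophage gene Adgre1 at the floor of 0.0364 on both control arrays and 0.0419 and 0.0364 at 2.5 h, and the T cell gene Cd3e at that floor in the control and 0.0412 and 0.0424 at 2.5 h. Ptprc, the pan-leukocyte phosphatase CD45, read 0.0443 and 0.0535 against 0.0665 and 0.0717, also below the limit. Cd14, the lipopolysaccharide co-receptor of monocytes, read 1.29 and 1.61 against 1.00 and 0.872 (-0.62 ± 0.19). Lyz2, the lysozyme of myeloid cells, read 1.38 and 1.33 against 1.19 and 1.18 (-0.19 ± 0.03). The wider list of 15 macrophage and leukocyte genes tested had 1 higher (Icosl), 1 lower (Cd52), 8 above 0, 7 below and a median of 0.13. Its brighter members went both ways. The B cell gene Cd79a read 2.02 and 2.09 against 3.27 and 2.84 (0.57 ± 0.11). Fcgr3 read 4.89 and 4.72 against 3.88 and 3.84 (-0.32 ± 0.03), and Cd74 3.26 and 3.35 against 2.64 and 2.69 (-0.31 ± 0.02). These values stand beside the lower Cd52 and Txk, and their part in them was not tested. Blood markers (3 measured, 2 above the limit) summed to 19.2 and 18.1 against 18.8 and 19.4, and endothelial markers (4 measured, 2 above the limit) to 0.856 and 0.930 against 0.967 and 0.827. Epididymis markers (3 measured, 2 above the limit) summed to 9.27 and 8.64 against 8.80 and 9.38. Most of that sum was Eppin at 8.53 and 7.91 against 7.70 and 8.22 (-0.05 ± 0.07). The other marker above the limit, Gpx5, read 0.701 and 0.696 against 1.06 and 1.11 (0.63 ± 0.04). Liver markers (7 measured, 5 above the limit) summed to 6.56 and 6.08 against 7.27 and 7.48. In the wider list of liver and plasma protein genes 15 of 26 measured passed the filter, whose mean took in the 5 h pool. Ttr, for example, read 0.122 and 0.0743 against 0.118 and 0.192, dim in both pools, but 18.4 and 19.6 at 5 h. Of the 15 genes 1 met the rule and the median was 0.49. That gene, Apoa1, the main protein of HDL, was dim at 0.0976 and 0.0513 against 0.218 and 0.214. Apoc1, another apolipoprotein, read 2.29 and 2.33 against 4.49 and 3.82 (0.84 ± 0.12), Apoa2 was at 0.49 ± 0.02, and the antitrypsin Serpina1b at -0.05 ± 0.14. Hrg, a plasma protein made in liver and absent from that list, read 0.0848 and 0.0416 against 0.299 and 0.336. The part of liver RNA in these values was not tested.

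The later TSA pools show where the 2.5 h levels stood in the following hours. They share the single control with the 2.5 h pool, so levels are given side by side. Insl5 read 5.69 and 5.42 at 5 h, 6.75 and 6.62 at 7.5 h and 7.54 and 6.46 at 10 h, near or above its 2.5 h level. Zic2 and Zmynd8 likewise stayed near theirs, Zic2 between 3.40 and 4.61 and Zmynd8 between 5.81 and 7.25 on the 6 later arrays. Cuzd1 stayed low, between 0.817 and 1.00. Other genes were farther from the 2.5 h level later. Dok4 read 0.252 and 0.262 at 5 h, 0.410 and 0.381 at 7.5 h and 0.243 and 0.227 at 10 h, below both 2.5 h arrays and partly within the control range. Ro60 read 0.387 and 0.368, then 0.363 and 0.424, then 0.309 and 0.290, back at the control level by 10 h. Pmaip1 read 1.72 and 1.75, then 2.35 and 2.15, then 1.52 and 1.42. Gch1 read 0.833 and 0.907, then 0.673 and 0.741, then 0.437 and 0.372. Setmar alternated, at 0.538 and 0.558, then 0.330 and 0.367, then 0.657 and 0.566, so its low level held at 2.5 and 7.5 h only. Apoa1 read 28.5 and 28.5 at 5 h, far above the 2.5 h arrays, and 0.0708 and 0.0960 at 7.5 h.

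**Figure D4:**
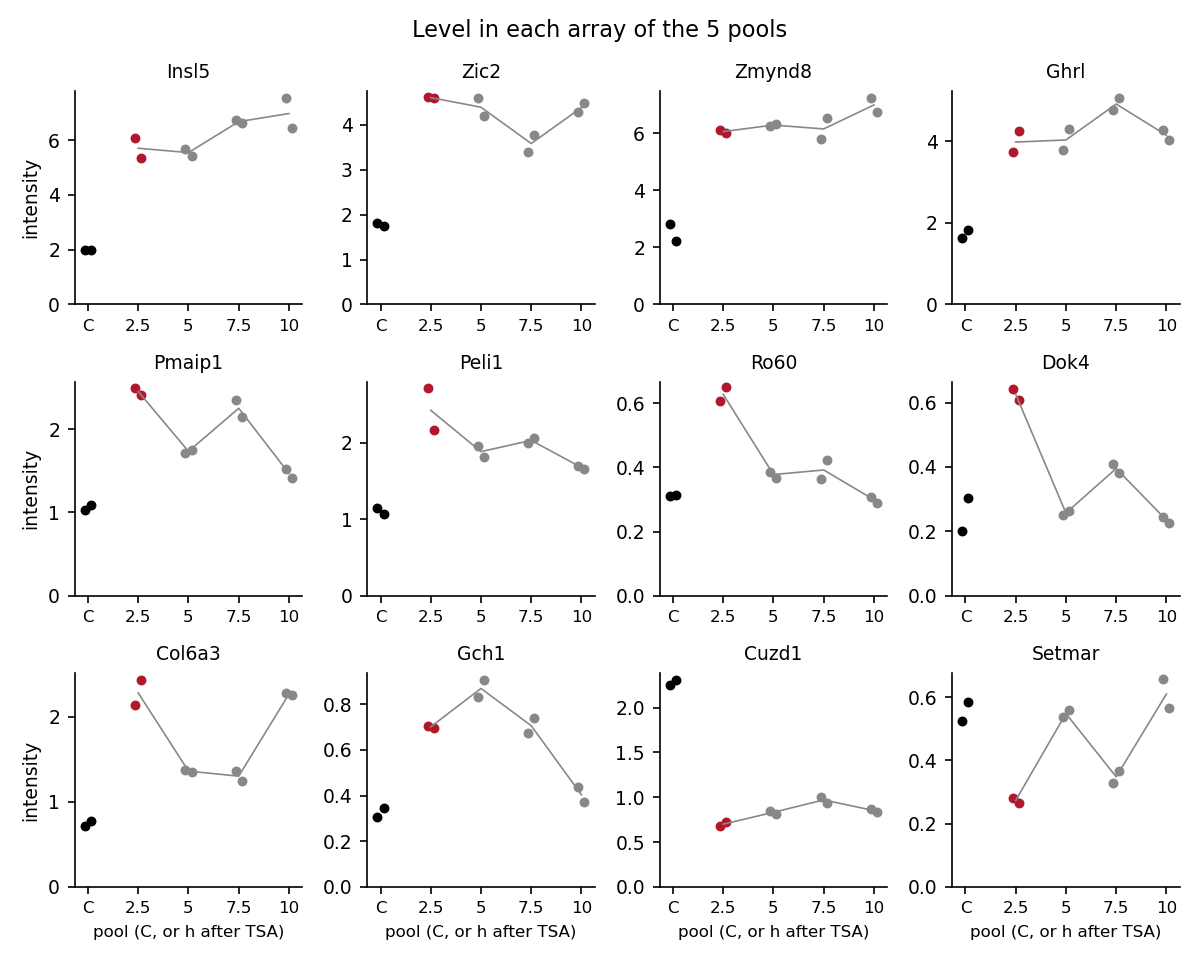
Normalised intensity on each array for 12 genes in the control pool (C, black, killed at 10 h) and the TSA pools at 2.5 (red), 5, 7.5 and 10 h (grey), with a line through the means of the TSA pools. Insl5, Zic2, Zmynd8 and Ghrl stay near their 2.5 h level while Ro60 and Dok4 are lower in the later pools, and each axis starts at 0.

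Whether the 2.5 h level differed from the later ones was tested with limma on the means of the 4 TSA pools. The test leaves the control out and takes the lone 2.5 h pool to vary like the 3 later ones. Those 3 pools differ in hour, so the spread used as error holds changes between hours as well as differences between pools. It is not a spread between replicates. For Apoa1, which read far higher at 5 h than at the other hours, the difference was -1.575 ± 3.235. After Benjamini-Hochberg adjustment across the 7422 probes none had an adjusted p under 0.05 (0.0% called; smallest limma adjusted p 0.739), and 450 had an unadjusted p under 0.05. For Dok4 the difference was 1.12 ± 0.30, for Pmaip1 0.45 ± 0.24 and for Insl5 -0.16 ± 0.16. These genes were among those named for a high fold at 2.5 h, and the same 2.5 h arrays enter this test. That choice favours a difference above 0, so the values are no independent evidence of one. With eBayes trend and robust settings 1 probe passed, 1700030J22Rik (difference -0.87, limma adjusted p = 0.00761), whose 2.5 h arrays differed from each other as given above. A p over the threshold does not show that levels were equal.

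Folds at 2.5 h moved with the probe ID number. In 20 bins of equal size along the ID, the median fold was 0.23 in the first (IDs 10 to 601, with 10 of the 50 higher probes) and -0.17 in the last (IDs 10215 to 10744, with 6 of the 18 lower ones). Probes of Urgcp, Zmynd8, Prorsd1 and Cdc26, all higher, carry neighbouring IDs (10719, 10721, 10722 and 10728). After each array was centred on probes of like ID, in 50 bins, 35 of the 50 higher and 14 of the 18 lower probes still met the rule. Adcyap1r1 (0.99), Ifrd1 (0.97), Vax2 (0.90), Lamb2 (0.78), Gdf9 (0.72) and Nkx2-1 (0.97) were among those that did not. Most group medians kept their sign. Liver and plasma protein genes went from 0.49 to 0.34. The deacetylase inhibitor group went from 0.25 to 0.16, ribosomal protein genes from 0.23 to 0.16, homeobox genes from 0.17 to 0.22 and mitosis genes from -0.24 to -0.20, while respiratory chain genes went from 0.23 to 0.13, Zfp genes from -0.14 to -0.06, immediate early genes from 0.11 to 0.05, histone genes from 0.09 to 0.04 and p53 and apoptosis genes from 0.08 to 0.04. The circadian group turned from 0.03 to -0.14, the G1 and S phase group from 0.01 to -0.04 and the macrophage and leukocyte group from 0.13 to -0.03. Histone deacetylases and sirtuins together went from -0.20 to -0.14. Among the zinc-dependent enzymes Hdac1 went from 0.08 to -0.01, Hdac6 from 0.11 to -0.04 and Hdac5 from 0.21 to 0.07. Hdac2 went from -0.14 to -0.015 and Hdac3 from -0.25 to -0.40. The sources used here do not say what the ID order stands for on the array.

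**Figure D5:**
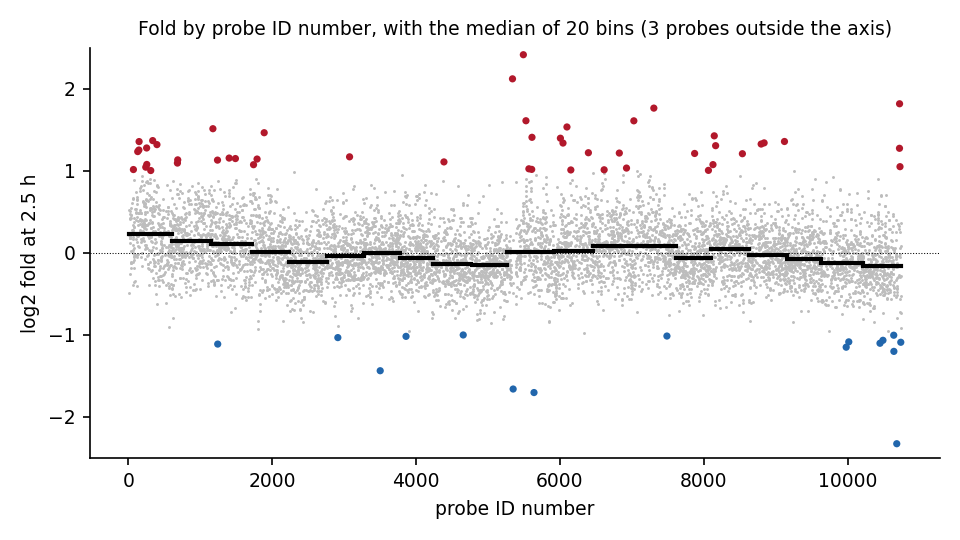
Log2 fold, 2.5 h over control, of each tested probe against its ID number, with red and blue for the probes past the rule and black bars for the median of 20 ID bins; the axis is limited to ±2.5, which leaves 3 probes outside. Bin medians drift between 0.23 and -0.17.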

How the data were processed

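The authors deposited linear normalised intensity values of CodeLink 1-channel (Cy5) arrays. Their sorted values were identical on all 10 arrays, so they had been quantile normalised; the sources used here do not name the program, background correction or spot flags. Of 10012 probes 115 had no value, and 8983 carried 1 symbol. A floor was set at the 5th percentile (0.0364), and values were turned to log2 and shifted to a common median, and the lowest 25% of probes were left out. Duplicate arrays were averaged per pool, since the labels name them technical replicates. The number of arrays limits the precision.

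The members and gene lists were chosen with earlier results of these data known. The 45 lists came from textbook knowledge or symbol patterns, and list values use the brightest probe of a gene. Genes named were up to 30 highest and 20 lowest past the 2-fold rule with 1 symbol; in each list described, up to 4 of largest fold above the median intensity, members past the rule and the first 3 of the list; up to 10 each way that passed limma; and 10 set genes (Hdac1, Hdac2, Hdac3, Hdac6, Cdkn1a, Fos, Jun, Egr1, Per1 and Insl5). Others are named where a result turns on them.

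Tests used limma 3.58.1 in R 4.3.3, two-sided, on 4 TSA pool means with 2 residual degrees of freedom. Figures used matplotlib 3.10.9 in Python 3.11.15. Both rules were tested on simulated data. The 2-fold rule was given array noise only, of 1 size for all probes. It found 54 of 100 2-fold and 100 of 100 4-fold changes, with 0 calls among 7222 unchanged probes. As no differences between pools or animals were simulated, this count says nothing of false calls from them. The simulated 2-fold changes lay exactly at the limit of the rule, so noise alone decided which of them were found. For limma the spreads were shuffled over the probes, so they did not follow brightness. On simulated pools limma found 52 of 100 2-fold and 87 of 100 4-fold changes, with 1 call among the unchanged probes. Alternatives were no shift, no floor, an offset of 0.5, no filter, the lowest 50% out, 1.5-fold and 3-fold rules, centring by ID, each array or pool left out, eBayes with trend and robust, and a random pool block with and without a replicate block. No gene coordinates of the array design are printed, since the sources used here do not name its build.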

Additional observations from a re-analysis of the deposited data

Results flagged for a closer look

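For the named genes below, both arrays of the 2.5 h pool lay on one side of both control arrays and both arrays of a later TSA pool lay on the other side. They were found among 241 named genes, each checked against the 3 later pools. The share over all tested probes was not counted. Some of the folds were not much larger than their technical error, such as Myh11 at 2.5 h (0.08 ± 0.06) and Odf1 at 7.5 h (0.07 ± 0.04). The folds share the control pool. The difference between 2.5 h and the single later pool was not tested, and the smallest limma adjusted p for any of these genes, 2.5 h against the 3 later pools together, was 0.739. Values are log2 folds against the control.

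Several response genes stood above the control at 2.5 h and below it later. Cdkn1a (p21) was at 0.28 at 2.5 h, -0.11 at 5 h and -0.081 at 10 h. Jun was at 0.58 and then -0.14 at 5 h. Mt2, a metallothionein, was at 0.32, then -0.090 at 5 h and -0.032 at 10 h. Timp3, a protease inhibitor, was at 0.36 and then -0.042 at 5 h. Ccnd2 (cyclin D2) was at 0.68 and then -0.52 at 10 h, the widest gap of these. Id4, a marker of undifferentiated spermatogonia, was at 0.25 and then -0.19, -0.087 and -0.21 at 5, 7.5 and 10 h. Dazl was at 0.16 and then -0.30 at 10 h, Hdac5 at 0.21 and then -0.14 at 10 h, and Sc5d at 0.18 and then -0.13 at 10 h. The smooth muscle myosin gene Myh11 was at 0.08 and then -0.28, -0.23 and -0.047 at 5, 7.5 and 10 h.

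Steroid enzyme genes did so at 7.5 h, with Cyp11a1 at 0.38 and then -0.16, Hsd3b1 at 0.36 and then -0.32, and Hsd3b6 at 0.36 and then -0.33. The duplicate arrays of that pool differed more than those of any other pool, with 53 probes 2-fold apart.

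The opposite order was seen in 9 genes. Dbp, a clock output factor, was at -0.51 at 2.5 h, 0.16 at 5 h and 0.48 at 10 h. Wt1, a Sertoli cell factor, was at -0.30, then 0.12 at 5 h and 0.32 at 10 h. Apoh was at -0.28 and then 0.58 at 5 h, and Cyp2d26 at -0.35 and then 0.25 at 5 h. At 10 h Ccn2 was at 0.17 (from -0.39), Nfkbia at 0.088 (from -0.33) and Tgfbr1 at 0.15 (from -0.25). Odf1 was at -0.09 and then 0.074 at 7.5 h. Tmigd1 read 0.429 and 0.418 in the control and 0.149 and 0.163 at 2.5 h, and was at 0.12 at 10 h.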

How the results depend on the processing

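Of the 68 probes past the 2-fold rule, all were kept without the shift of the arrays and without the floor, but neither setting could change them. The sorted values were identical on all arrays, and the floor of 0.0364 lay below the values of these probes in both pools. Adding 0.5 before log2 left 13 (9 higher, 4 lower); among those lost were Ifrd1 (0.95), Pmaip1 (0.92), Peli1 (0.87), Vax2 (0.82), Adcyap1r1 (0.77), Hoxd1 (0.76), Lif (0.73), Lamb2 (0.70), Gdf9 (0.59), Dok4 (0.58), Gch1 (0.54), Zfp30 (0.53), Ro60 (0.48), Nkx2-1 (0.42), Fbxw7 (-0.83), Pou6f1 (-0.60), Txk (-0.58), Mllt3 (-0.50) and Setmar (-0.45). Leaving out the lowest 50% of probes left 16 (13 and 3), whereas no filter on dim probes gave 219 (128 and 91). A 1.5-fold rule gave 562 (391 and 171) and a 3-fold rule 12 (7 and 5). Centring by ID number gave 61 (43 and 18), of which 49 were shared. Leaving out 1 array gave 71 to 81 in all (51 to 63 higher, 16 to 24 lower), of which 53 to 61 were shared. Without the second control array Tnfrsf12a, Isl1 and Rhoc, each with a dim control pool, no longer met the rule. No named gene changed direction in a call. In the test against the later pools, calls stayed at 0 except for 1 with eBayes trend and robust, and unadjusted calls ran from 341 to 785. Replicate numbers showed no pairing of arrays (over 6 pairs of TSA pools, r between the deviations of arrays with the same number ran from -0.187 to 0.14), and with a replicate block the test gave 0 calls and 681 unadjusted ones. The count of calls depended on the fold limit and on the treatment of dim probes, where signal over background limits what can be read; differences between animals were not measured.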
